A study of Mus musculus with 21 samples.

Results

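The p53 and DNA damage response was followed through 10 genes in the brain of GA-Camk2a mice. They are Trp53, which encodes the transcription factor p53, and Cdkn1a, Mdm2, Ccng1, Bax, Bbc3, Phlda3, Gadd45a, Gadd45b and Gadd45g. They were taken by gene symbol from a list drawn up with earlier results of these data known, and all 10 were found among the 64361 genes of the count table. The table held 21 bulk prime-seq libraries from 11 mice killed at 30 to 40 weeks of age, and prime-seq counts the 3′ ends of polyadenylated RNA. The cortex was measured in 5 control and 6 GA-Camk2a mice and the hippocampus in 4 control and 6 GA-Camk2a mice, and 10 mice gave both tissues. These group sizes follow the labels, and the study gives the control numbers of the tissues the other way round. GA-Camk2a mice express poly-GA, a dipeptide repeat protein translated from the expanded C9orf72 repeat of familial ALS and FTD, through a Camk2a-Cre driver that is active in excitatory neurons. The labels call the control mice only controls and give neither litter nor sex per library. The study names the controls of a staining in this line Camk2a, and does not say whether the controls of these libraries were the same.

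p53 is held at a low level by the ubiquitin ligase Mdm2, and damaged DNA or other stress stabilises it so that it switches on its target genes. The targets include the cyclin-dependent kinase inhibitor Cdkn1a (p21), the feedback regulators Mdm2 and Ccng1, the Akt inhibitor Phlda3, and the mitochondrial death genes Bax and Bbc3 (PUMA). The small stress sensors Gadd45a, Gadd45b and Gadd45g bind PCNA, cyclin-dependent kinases and MAP kinase kinase kinases, and Gadd45b and Gadd45g are also induced in neurons by activity and by signals other than p53.

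p53 binds DNA as a tetramer on pairs of a short half-site, so the promoters of the 10 genes were searched for it. The windows were taken from RefSeq (GRCm38.p6) and ran from 250 bases before to 50 bases after each annotated start. The search used the consensus p53 half-site with no mismatch, which has 10 letters and reads the same on both strands. Of all 32851 promoter windows of this length, 8.36% held a half-site and 0.359% held at least 2. Among the 13 windows of the 10 genes, 6 windows of 6 genes held one. The stretches below are printed because they show which of these genes carry a half-site near their start, with the half-site in capitals.
Trp53: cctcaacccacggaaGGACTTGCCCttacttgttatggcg
Mdm2: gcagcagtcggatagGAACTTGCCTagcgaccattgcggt
Ccng1: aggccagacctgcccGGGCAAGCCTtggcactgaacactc
Bax: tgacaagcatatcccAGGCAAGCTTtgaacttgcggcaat
Gadd45a: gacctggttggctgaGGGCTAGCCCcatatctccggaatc
The matches began 75 bases before the start in Trp53, 186 in Mdm2, 185 in Ccng1, 201 in Bax and 40 in Gadd45a. The upstream one of the 2 Cdkn1a windows (chr17:29090729-29091028, plus strand) held 2 half-sites, beginning 73 and 51 bases before the start. It is printed whole because Cdkn1a showed the largest genotype effect of the 10 genes, and its half-sites are in capitals.
Cdkn1a: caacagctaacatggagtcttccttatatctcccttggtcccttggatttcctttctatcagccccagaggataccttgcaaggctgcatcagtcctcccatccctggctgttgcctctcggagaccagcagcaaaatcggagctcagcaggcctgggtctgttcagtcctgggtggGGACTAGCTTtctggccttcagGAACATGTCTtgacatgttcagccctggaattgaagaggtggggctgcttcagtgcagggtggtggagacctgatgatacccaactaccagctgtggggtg
No whole half-site was found in the windows of Bbc3, Phlda3, Gadd45b and Gadd45g, nor in the downstream Cdkn1a window (chr17:29093519-29093818). The Phlda3 window ended in gaacatgt, the opening letters of a possible half-site that its edge cut off. The Gadd45g window (chr13:51846425-51846724, plus strand) is printed because Gadd45g passed the test in both tissues. Its capitals mark an E-box CACGTG, which reads the same on both strands and was found in 7.15% of all windows, a CCAAT box (37.4%, both strands) and a TATAAA box (8.32%, strand of the gene).
Gadd45g: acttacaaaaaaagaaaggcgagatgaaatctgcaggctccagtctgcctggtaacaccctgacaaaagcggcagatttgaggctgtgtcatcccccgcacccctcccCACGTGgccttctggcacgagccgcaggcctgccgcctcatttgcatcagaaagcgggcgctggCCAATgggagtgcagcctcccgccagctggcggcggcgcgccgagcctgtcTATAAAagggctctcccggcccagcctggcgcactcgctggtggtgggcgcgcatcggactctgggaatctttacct
These matches describe the letters of the windows only, since binding of p53 was not measured here.

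Few of the 10 genes differed between genotypes. In the cortex 2 of 10 passed an adjusted p of 0.05, Trp53 and Gadd45g, and both were higher in GA-Camk2a mice. In the hippocampus 2 of 10 passed, Cdkn1a and Gadd45g, again both higher. Over all genes 12.5% of 13058 tested genes passed in the cortex (6.35% higher and 6.17% lower) and 10.9% of 14884 in the hippocampus (4.97% higher and 5.97% lower), so a count of 2 in 10 is not read as a property of these genes. The median log2 fold change of the 10 genes was 0.15 in the cortex and 0.30 in the hippocampus, beside -0.01 and 0.02 over all tested genes. The estimate was positive for 7 of 10 genes in the cortex and 8 of 10 in the hippocampus. These are descriptions of the list, and the same animals gave both tissues.

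**Figure D1:**
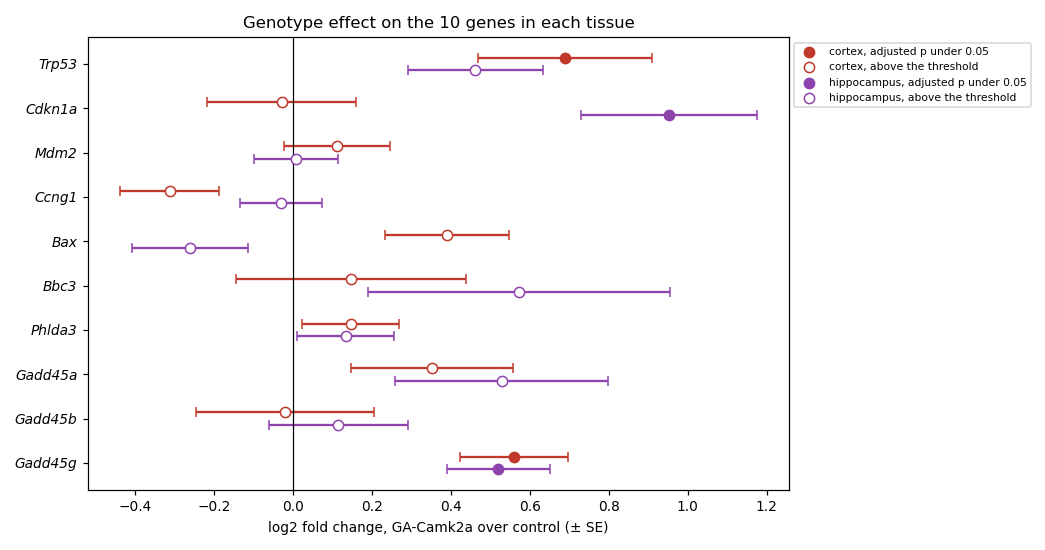
Log2 fold change of GA-Camk2a over control (x axis, bars show ± SE) for the 10 genes in cortex (red) and hippocampus (purple), with filled points for an adjusted p under 0.05. Trp53 and Gadd45g are filled in the cortex and Cdkn1a and Gadd45g in the hippocampus, while Cdkn1a lies near 0 in the cortex and Bax lies on opposite sides of 0 in the tissues.

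The cell type markers of the tissue moved with genotype as well. In bulk tissue a change in the number of cells of a type and a change in RNA per cell cannot be told apart. The 10 microglial markers summed to 416 to 474 CPM in control and 1043 to 1584 CPM in GA-Camk2a cortex, and to 366 to 454 and 720 to 1171 CPM in the hippocampus, and 7 of 10 passed as higher in each tissue. The 8 astrocyte markers summed to 2485 to 3325 and 3607 to 5091 CPM in the cortex and to 2936 to 3429 and 4476 to 6063 CPM in the hippocampus (5 and 6 of 8 higher). The 8 excitatory neuron markers summed to 2055 to 2592 and 1337 to 1760 CPM in the cortex and to 2345 to 2952 and 1242 to 1692 CPM in the hippocampus (5 and 6 of 8 lower). The 4 cortical markers summed to 263 to 389 CPM in control and 223 to 690 CPM in GA-Camk2a cortex, but to 165 to 1527 CPM in control and 186 to 5370 CPM in GA-Camk2a hippocampus. The high sums came from Rorb, named here after its values were seen, which read 1455 CPM in the hippocampus of control mouse 11, 5303 and 4414 CPM in that of GA-Camk2a mice 16 and 30, and 86.6 to 165 CPM in the other 7 hippocampal libraries. In these hippocampi of mice 11, 16 and 30, Cux2 read 26.3, 27.3 and 35.5 CPM and Tbr1 19.8, 12.4 and 14.9 CPM. Fezf2 read 26.3, 27.7 and 24.2 CPM there. The other hippocampal libraries read 29.1 to 44.0, 14.7 to 23.5 and 18.4 to 36.8 CPM, so these cortical markers were not raised with Rorb. In the cortex Rorb read 612 CPM in GA-Camk2a mouse 41 and 133 to 214 CPM in the other 10 libraries. Without these 3 hippocampal libraries, a setting chosen after seeing the data, 0 of the 9 genes still tested passed in the hippocampus with edgeR, and 4 of them had an unadjusted p under 0.05. The 6 striatal markers were lower in GA-Camk2a (119 to 203 CPM) than in control cortex (345 to 522 CPM), with 6 of 6 past the threshold. No marker of these lists was at 0 in a whole group, and their part in the results for Trp53, Cdkn1a and Gadd45g, and in those for the wider lists, was not tested.

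Trp53 transcript (ENSMUSG00000059552, chromosome 11) was higher in the cortex of GA-Camk2a mice. In counts scaled to the library total (CPM), the 5 cortex controls read 3.63, 3.82, 7.33, 7.76 and 9.11, and the 6 GA-Camk2a cortices ranged from 9.91 over a median of 10.9 to 13.5. Every GA-Camk2a cortex lay above every control cortex, which was the case in one direction or the other for 6.17% of all genes tested. The log2 fold change was 0.69 ± 0.22 (SE), or 1.61-fold (adjusted p = 0.0431). In the hippocampus the controls read 8.44, 8.55, 9.12 and 10.2 CPM and the GA-Camk2a mice 9.22 to 16.2 CPM with a median of 14.1. Here the groups overlapped and the log2 fold change of 0.46 ± 0.17 did not pass (adjusted p = 0.102).

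The cortical Trp53 result rests on few counts. Trp53 had 4 to 28 counts per library in the control cortex and 15 to 32 in the GA-Camk2a cortex, and the lowest controls, mice 11 and 20, had 4 counts each and were also the shallowest control libraries. Without both, a setting chosen after seeing the data, the log2 fold change was 0.51 ± 0.22 (adjusted p = 0.162). The call was kept in the fits that left out GA-Camk2a mouse 35 or control mouse 37 and lost in the other 9 that left out 1 library (adjusted p up to 0.0943, and 0.0726 without GA-Camk2a mouse 41), and DESeq2 without covariates gave 0.71 (adjusted p = 0.102). Batch 1 alone gave 0.68 (adjusted p = 0.132) and batch 2 alone 0.68 (adjusted p = 0.567).

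Cdkn1a (ENSMUSG00000023067, chromosome 17), which arrests the cell cycle at the entry to S phase, was higher in the hippocampus of GA-Camk2a mice and did not pass the test in the cortex. The hippocampal controls read 5.85, 7.81, 9.12 and 9.80 CPM. The GA-Camk2a hippocampi read 10.0 CPM at the lowest, 15.8 at the median and 21.3 at the highest. The groups did not overlap, as for 9.62% of all genes tested in this tissue, and the lowest GA-Camk2a library (mouse 41) lay just above the highest control (mouse 37). The log2 fold change was 0.95 ± 0.22, or 1.94-fold (adjusted p = 0.012).

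The hippocampal Cdkn1a estimate was 1.10 within batch 1 (adjusted p = 0.167) and 0.77 within batch 2 (adjusted p = 0.21). Leaving out control mouse 11, the lowest library, gave 0.78 with an adjusted p of 0.0523, and the call was kept in the other 9 fits that left out 1 library. Without the 3 libraries high in Rorb the estimate was 0.73 ± 0.24 (adjusted p = 0.0863). In the cortex the controls read 15.0, 15.3, 21.8, 25.3 and 31.8 CPM and the GA-Camk2a mice 15.7 to 24.8 CPM with a median of 20.2, so the groups overlapped almost wholly. The cortical log2 fold change was -0.03 ± 0.19 (adjusted p = 0.947), a value whose sign changed with the normalization, and it was 0.19 in batch 1 and -0.50 in batch 2. Cdkn1a overlaps a gene on the opposite strand in the annotation, and the sources do not say whether counting used strand.

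**Figure D2:**
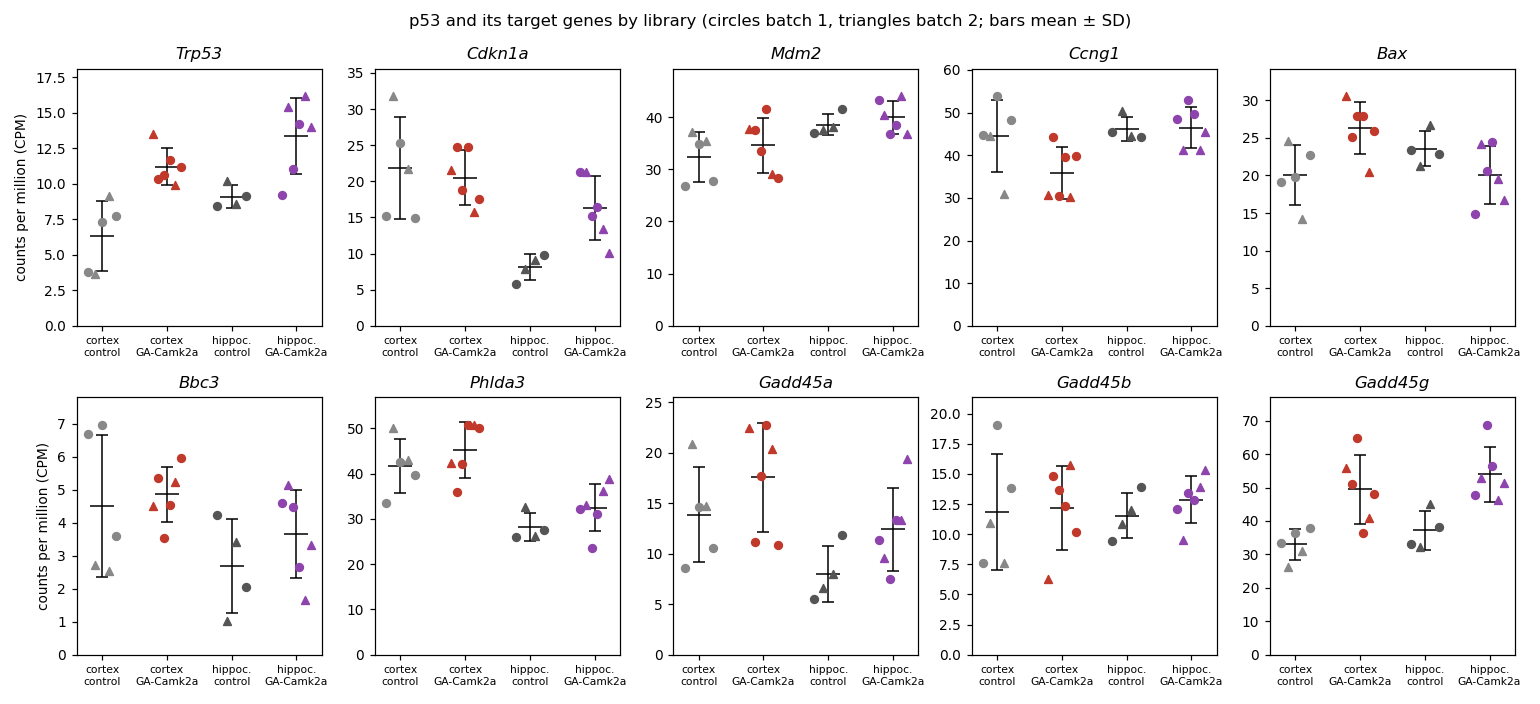
CPM of the 10 genes (y axes, each from 0) in every library of the 4 groups, with circles for batch 1, triangles for batch 2 and bars for mean ± SD. Cdkn1a and Gadd45g in the hippocampus and Trp53 in the cortex show no overlap between genotypes, whereas Mdm2, Phlda3 and Gadd45b overlap in both tissues.

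The feedback genes of p53 did not pass in either tissue. Mdm2, the ligase that degrades p53, was at 32.4 ± 4.82 CPM (SD, n = 5) in control and 34.6 ± 5.25 CPM (n = 6) in GA-Camk2a cortex, and at 38.6 ± 2.01 (n = 4) and 39.9 ± 3.18 CPM (n = 6) in the hippocampus. Its log2 fold changes were 0.11 ± 0.13 and 0.01 ± 0.11, and its ranges overlapped in both tissues. Hippocampal Mdm2 varied by 5.22% (CV) among controls and 7.96% among GA-Camk2a mice.

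Ccng1, the cyclin G1 gene, had the most negative cortical estimate of the 10 genes. Control cortices read 30.9, 44.5, 44.8, 48.2 and 53.9 CPM and GA-Camk2a cortices 30.3 to 44.2 CPM with a median of 35.1, so only control mouse 37 fell among the lower GA-Camk2a libraries. The log2 fold change of -0.31 ± 0.13 did not pass (adjusted p = 0.114). In the hippocampus Ccng1 was at 46.1 ± 2.83 CPM (SD, n = 4) and 46.5 ± 4.74 CPM (n = 6). Phlda3, which competes with Akt for membrane lipids, gave 0.15 ± 0.12 in the cortex and 0.13 ± 0.12 in the hippocampus, with adjusted p of 0.489 and 0.553.

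Bax, which permeabilises the mitochondrial outer membrane, had estimates of opposite sign in the tissues. Control cortices read 14.2, 19.1, 19.8, 22.7 and 24.5 CPM and GA-Camk2a cortices 20.4 to 30.6 CPM with a median of 26.9. GA-Camk2a cortices other than that of mouse 35 lay above every control, and the log2 fold change was 0.39 ± 0.16 (adjusted p = 0.112). In the hippocampus the controls read 21.2, 22.8, 23.4 and 26.8 CPM and the GA-Camk2a mice 14.9 to 24.4 CPM with a median of 20.1, a log2 fold change of -0.26 ± 0.15 (adjusted p = 0.298) that was -0.61 with counts thinned to the smallest library (adjusted p = 0.0602). Bax overlaps a protein-coding gene model on its own strand, so its counts are uncertain.

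Bbc3, a BH3-only activator of Bax, was measured with 3 to 19 counts per library. Its log2 fold changes were 0.15 ± 0.29 in the cortex and 0.57 ± 0.38 in the hippocampus, with adjusted p of 0.804 and 0.388. The hippocampal value was 0.24 without control mouse 20, 0.36 without control mouse 37 and 0.89 without control mouse 11. The SE in the hippocampus was the largest among the 10 genes. Its CPM varied by 53.2% (CV) among hippocampal controls, where counting alone gives 34.3%.

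Gadd45g (ENSMUSG00000021453, chromosome 13) was the only one of the 10 genes to pass in both tissues, and it was higher in GA-Camk2a mice in each. The share of all genes that passed in both tissues was not computed, and 10 mice gave both tissues. The cortical controls read 26.3, 30.9, 33.4, 36.3 and 37.96 CPM. The GA-Camk2a cortices read 36.4 CPM at the lowest, 49.6 at the median and 64.8 at the highest. Only GA-Camk2a mouse 34 fell within the control range, and the log2 fold change was 0.56 ± 0.14, or 1.47-fold (adjusted p = 0.00873). The call was kept in all 11 cortical fits that left out 1 library.

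In the hippocampus Gadd45g read 32.3, 33.1, 38.3 and 45.01 CPM in controls and 46.3 to 68.7 CPM with a median of 52.1 in GA-Camk2a mice. The groups did not overlap, and the log2 fold change was 0.52 ± 0.13, or 1.43-fold (adjusted p = 0.0186). The call was lost without control mouse 11 (adjusted p = 0.0836), control mouse 20 (adjusted p = 0.0829) or control mouse 37 (adjusted p = 0.0568), with estimates of 0.42 to 0.61 over all 10 such fits. Without the 3 libraries high in Rorb it was 0.40 ± 0.14 (adjusted p = 0.102). Within batches the estimate was 0.49 and 0.70 in the cortex and 0.65 and 0.36 in the hippocampus, in batches 1 and 2, and no batch passed alone (adjusted p of 0.101 to 0.306).

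The other Gadd45 genes did not pass in the main comparison of either tissue. Gadd45a, the family member most directly under p53, was at 13.9 ± 4.73 (SD, n = 5) against 17.6 ± 5.39 CPM (n = 6) in the cortex and at 7.99 ± 2.76 (n = 4) against 12.4 ± 4.09 CPM (n = 6) in the hippocampus, in controls and GA-Camk2a mice. Its log2 fold changes were 0.35 ± 0.21 (adjusted p = 0.294) and 0.53 ± 0.27 (adjusted p = 0.242). Its libraries spread widely, with a CV of 30.7% to 34.6% in the 4 groups where counting alone gives 17.9% to 19.8%. Without hippocampal control mouse 37, the highest control at 11.9 CPM, the hippocampal estimate was 0.92 (adjusted p = 0.0458). Within batches it was 0.19 in batch 1 (adjusted p = 0.884) and 0.94 in batch 2 (adjusted p = 0.125). With thinned counts the cortical estimate was 0.54 (adjusted p = 0.226). Gadd45a also overlaps a transcript on the opposite strand. Gadd45b had log2 fold changes of -0.02 ± 0.23 and 0.11 ± 0.18, and the sign of the cortical value changed with the normalization.

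The genes whose pattern over the 21 libraries was most like that of Gadd45g were Slc35f6, Emc8 and Cpe. Their centred log2 CPM differed from that of Gadd45g by a mean of 0.15, 0.16 and 0.16 per library, where the median over 11254 genes was 0.37. Cpe encodes carboxypeptidase E of neuropeptide secretory granules and Emc8 a subunit of the membrane protein insertase of the endoplasmic reticulum. This is a measure of likeness only, and the libraries share their depth and genotype differences.

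The tissues themselves differed for 3 of the 9 genes tested in controls, and all 3 were lower in the hippocampus than in the cortex. Over all genes 16.3% of 14435 passed in this comparison, and 7.6% passed as lower in the hippocampus. In the same comparison all 5 choroid plexus markers were higher in the hippocampus (median log2 difference 2.81), all 6 striatal markers were lower (-2.82), and 7 of 10 activity-dependent genes were lower (-1.09), and their part in the differences of the 3 genes was not tested. Cdkn1a had a log2 difference of -1.45 ± 0.22 (adjusted p = 0.000224). Phlda3 had -0.62 ± 0.12 (adjusted p = 0.0023) and Gadd45a -0.79 ± 0.26 (adjusted p = 0.0485). The Cdkn1a and Phlda3 calls were kept in all 9 fits that left out 1 control library, whereas the Gadd45a call was kept only without cortical mouse 11 or hippocampal mouse 37 and lost in the other 7 (adjusted p up to 0.176). The Gadd45a difference was -1.26 without hippocampal mouse 37 (adjusted p = 0.00161) and -0.61 to -0.90 in the other 8 fits. Bbc3 was below the count filter here and gave -0.79 ± 0.38 (adjusted p = 0.375) with no filter.

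With all 4 groups set in order, Cdkn1a was highest in control cortex (21.8 ± 7.10 CPM, SD) and GA-Camk2a cortex (20.5 ± 3.79), followed by GA-Camk2a hippocampus (16.3 ± 4.45) and control hippocampus (8.14 ± 1.74). The only neighbours in this order without overlap were the GA-Camk2a and control hippocampus. Trp53 was highest in GA-Camk2a hippocampus (13.3 ± 2.67 CPM) and GA-Camk2a cortex (11.2 ± 1.28), then control hippocampus (9.07 ± 0.80) and control cortex (6.33 ± 2.47), and each overlapped its neighbour. Gadd45g had the same order as Trp53, with 53.9 ± 8.09, 49.5 ± 10.3, 37.2 ± 5.86 and 33.0 ± 4.59 CPM, and again each overlapped its neighbour.

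The genotype effect of Cdkn1a was larger in the hippocampus than in the cortex by 1.00 ± 0.30 on the log2 scale, and that of Bax smaller by -0.67 ± 0.21. Across all genes these differences had adjusted p of 0.189 and 0.196, so none of the 10 genes passed, where 0.4% of 14751 genes did. Cdkn1a and Bax were the 2 genes with an unadjusted p under 0.05 in edgeR, and 0 of 10 passed with DESeq2 or limma-voom. Since 10 mice gave both tissues, the fit was repeated with the mouse as a replicate block, which removes each mouse's own level. Cdkn1a then gave 1.16 ± 0.25 (adjusted p = 0.0415) and was the only one of the 10 genes past the threshold, beside 70 of 14751 genes (0.475%) in that fit, while Bax gave -0.79 ± 0.24 (adjusted p = 0.19). Without the 3 hippocampal libraries high in Rorb, and with no block, Cdkn1a gave 0.78 ± 0.33 (adjusted p = 0.458).

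Cdkn1a was lower in the hippocampus than in the cortex of all 10 mice, by a log2 ratio of -2.02 to -1.15 in the 4 controls and of -0.81 to -0.02 in the 6 GA-Camk2a mice. The genotypes did not overlap in this ratio, as for 2.79% of all genes tested. Bax was higher in the hippocampus of 3 of 4 control mice and of 0 of 6 GA-Camk2a mice. The 2 tissues of a mouse came from the same batch in 5 mice and from different batches in the other 5. With counts thinned to the smallest library the Cdkn1a difference was 0.64 (adjusted p = 0.656).

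**Figure D3:**
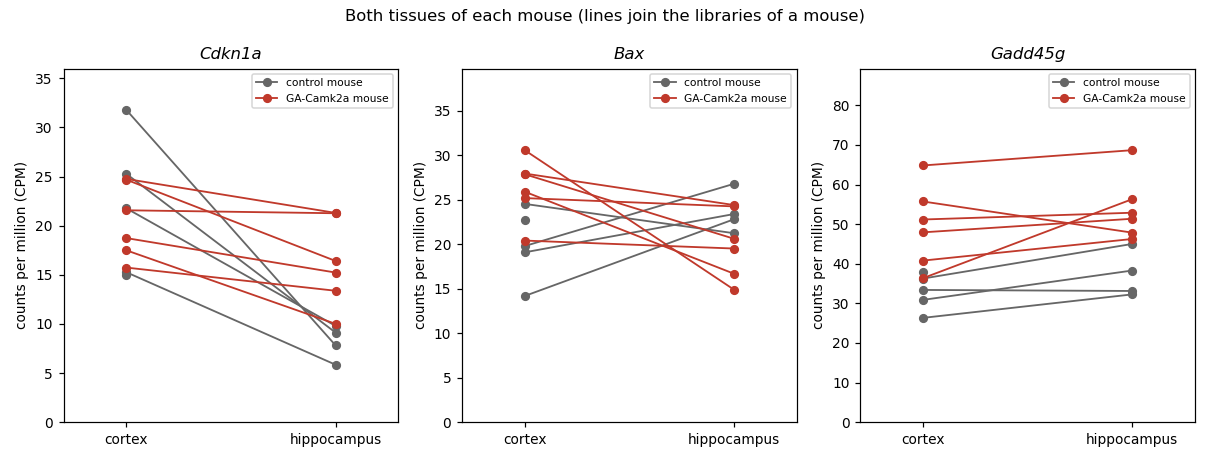
CPM of Cdkn1a, Bax and Gadd45g in the cortex and hippocampus (x axis), with a line joining the tissues of a mouse, in grey for controls and red for GA-Camk2a mice; a single grey point is the control mouse with a cortex library only. The grey Cdkn1a lines fall more steeply than the red ones, and the red Bax lines all fall.

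Lists of related genes were counted in the same fits, in which 12.5% of all genes passed in the cortex and 10.9% in the hippocampus, and nothing particular to a list is read from its count. Of the other p53 target genes, 3 of 21 tested passed in the cortex (2 higher, 1 lower) and 3 of 22 in the hippocampus (1 higher, 2 lower), with median log2 fold changes of 0.07 and 0.20. Fas, the death receptor, rose from 3.02 ± 1.73 (SD, n = 5) to 7.83 ± 1.59 CPM (n = 6) in the cortex and from 3.09 ± 0.97 (n = 4) to 7.05 ± 1.24 CPM (n = 6) in the hippocampus, with log2 fold changes of 1.39 ± 0.28 (adjusted p = 0.00192) and 1.05 ± 0.26 (adjusted p = 0.0168). Its hippocampal call was lost without control mouse 31 (adjusted p = 0.0503) or 37 (adjusted p = 0.0601), or without the 3 libraries high in Rorb (adjusted p = 0.134). Fas had only 1 to 12 counts per control library in the cortex and 3 to 23 in the hippocampus. The ribosomal protein gene Rps27l rose in the cortex (0.60 ± 0.11, adjusted p = 0.000834). Zfp365 fell by 0.56 ± 0.10 and 0.57 ± 0.11 (adjusted p = 0.000478 and 0.00352), and the polo-like kinase gene Plk2, also an activity-dependent gene, fell in the hippocampus by 0.62 ± 0.12 (adjusted p = 0.00261).

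No gene passed among the p53 regulators and family members (11 tested in the cortex, 10 in the hippocampus), the DNA damage sensors and signalling kinases (12 and 15), the other CDK inhibitors (3 and 3) or the proliferation genes (4 of 19 and 6 of 19 above the count filter). At an unadjusted p under 0.05, edgeR gave 2 and 2 of the regulators, 0 and 0 of the sensors, 1 and 1 of the CDK inhibitors and 1 and 2 of the proliferation genes, and DESeq2 and limma-voom called 0 in these lists. Of the DNA repair genes, 0 of 19 passed in the cortex with edgeR, DESeq2 or limma-voom (2 at an unadjusted p under 0.05) and 2 of 22 in the hippocampus. These were Brca2, of homologous recombination, which rose by 0.90 ± 0.24 (adjusted p = 0.0249), and Parp1, a sensor of strand breaks, which fell by 0.47 ± 0.12 (adjusted p = 0.0216). The Brca2 call did not hold in 6 of 10 refits with a library omitted (adjusted p up to 0.11), and the Parp1 call without control mouse 20 (adjusted p = 0.0832) or 31 (adjusted p = 0.0511), or without the 3 libraries high in Rorb (adjusted p = 0.113).

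In the BCL-2 family, which carries the death signal of Bax and Bbc3, 3 of 10 tested genes passed in the cortex and 4 of 12 in the hippocampus. Bcl2a1b rose by 2.74 ± 0.39 (adjusted p = 4.97e-05) and 2.53 ± 0.39 (adjusted p = 0.000703), and Bcl2a1a by 2.16 ± 0.51 in the hippocampus (adjusted p = 0.0133, and 0.0623 without control mouse 37). Both encode the anti-apoptotic protein A1, known from myeloid cells, and are near-identical copies whose reads may be split between them. Control libraries held only 2 to 8 counts of Bcl2a1b in the cortex and 1 to 8 in the hippocampus. Bcl2a1a had 1 to 9 counts in the hippocampal controls. Bok, a pro-apoptotic member, fell by 0.43 ± 0.12 in the cortex (adjusted p = 0.0163, and 0.0511 without control mouse 38) and by 1.33 ± 0.16 in the hippocampus (adjusted p = 7.42e-05). The difference between these falls was -0.91 ± 0.20 (adjusted p = 0.0337), a call that did not hold in 14 of 21 refits with a library omitted (adjusted p up to 0.114), nor without the 3 libraries high in Rorb (adjusted p = 0.0983). Bid rose in the cortex by 0.80 ± 0.25 (adjusted p = 0.0387) and Bcl2 in the hippocampus by 0.53 ± 0.15 (adjusted p = 0.0322), and neither call held in 7 of the refits with a library omitted. The Bcl2 call was also lost without the 3 libraries high in Rorb (adjusted p = 0.251).

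Among the kinases through which GADD45 proteins signal, 4 of 9 passed in the cortex and 2 of 9 in the hippocampus, all lower. The JNK3 gene Mapk10 fell by 0.30 ± 0.09 (adjusted p = 0.0259) and 0.49 ± 0.10 (adjusted p = 0.00367), and the JNK kinase gene Map2k4 by 0.34 ± 0.10 (adjusted p = 0.0326) and 0.31 ± 0.08 (adjusted p = 0.0281), in cortex and hippocampus. Mapk8 (JNK1) fell by 0.49 ± 0.14 (adjusted p = 0.0208) and Mapk14 (p38 alpha) by 0.47 ± 0.14 (adjusted p = 0.0272) in the cortex. The 4 cortical calls were lost in 4 to 9 of 11 fits that left out 1 library, and the hippocampal Map2k4 call in 3 of 10, while the hippocampal Mapk10 call was kept in all 10. Without the 3 libraries high in Rorb, the Map2k4 call was lost (adjusted p = 0.203) and the Mapk10 call kept (adjusted p = 0.0145).

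Gadd45b and Gadd45g can also be induced by activity and by glucocorticoids, and lists of such genes were counted beside them. Of the activity-dependent genes, 5 of 9 passed in the cortex and 4 of 8 in the hippocampus, all lower, with median log2 fold changes of -0.83 and -0.30. In the same cortical libraries all 6 striatal markers were lower (median log2 fold change -1.61), and their part in the cortical falls was not tested. Egr1 fell by 1.39 ± 0.17 and 1.02 ± 0.15 on the log2 scale (adjusted p = 8.24e-06 and 0.000356). Arc fell by 1.63 ± 0.23 and 1.37 ± 0.30 (adjusted p = 4.04e-05 and 0.00736). Egr2 fell by 1.55 ± 0.37 in the cortex (adjusted p = 0.00709), with 3 to 27 counts per control and 0 to 10 per GA-Camk2a library. Fos fell in the cortex by 0.83 ± 0.21 (adjusted p = 0.0111, and 0.0987 without control mouse 31). Nr4a1 fell by 1.03 ± 0.26 and 0.67 ± 0.18 (adjusted p = 0.00993 and 0.0255), and Junb in the hippocampus by 0.47 ± 0.14 (adjusted p = 0.0452), the last 2 of these calls being lost in 4 and 7 of 10 hippocampal fits that left out 1 library and the cortical Nr4a1 call without control mouse 31 (-0.65, adjusted p = 0.0984). Of 8 glucocorticoid-responsive genes, 2 passed in each tissue, Nfkbia higher (0.71 ± 0.14 and 0.73 ± 0.14, adjusted p = 0.00167 and 0.00291) and Klf9 lower (-0.50 ± 0.11 and -0.31 ± 0.08, adjusted p = 0.00383 and 0.0187). Without the 3 libraries high in Rorb the hippocampal Junb call was lost (adjusted p = 0.0665). The hippocampal Klf9 call was lost without control mouse 20 (adjusted p = 0.0594) or 37 (adjusted p = 0.0565).

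**Figure D4:**
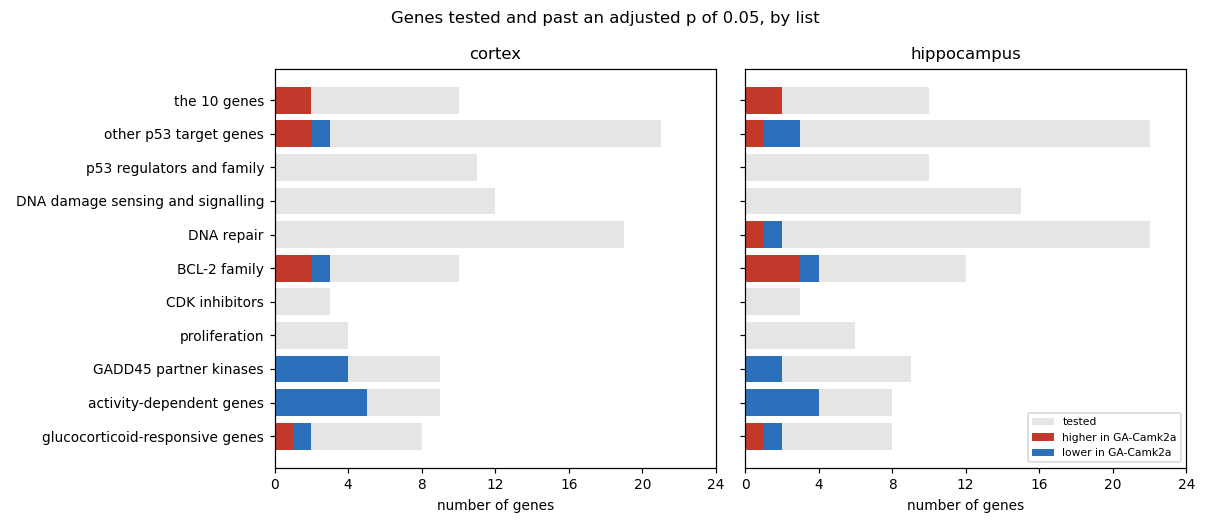
Number of genes tested (grey), higher (red) and lower (blue) in GA-Camk2a mice at an adjusted p under 0.05 (x axis), for the 10 genes and each wider list, in cortex (left) and hippocampus (right). The lists of p53 regulators, damage sensors, CDK inhibitors and proliferation have no coloured part in either tissue, and the kinase and activity lists are blue only.

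The libraries also differed in tissue content beyond these cell types. The 5 hippocampal markers summed to 589 to 734 CPM in control hippocampus and 91.7 to 154 CPM in control cortex. The 5 choroid plexus markers ranged from 1809 to 32719.5 CPM in control and from 1838 to 55520.2 CPM in GA-Camk2a hippocampus, so they varied widely within both genotypes and none passed between them. Oligodendrocyte markers passed as higher for 2 of 8 in the cortex and 1 of 8 in the hippocampus, precursor markers for 0 of 6 in both, interneuron markers for 1 and 2 of 6, vessel markers for 0 of 7 and 0 of 8, neuroblast markers for 0 of 4 in both, and T and other blood cell markers for 1 of 2 and 1 of 4. Of the markers of the tissues themselves, 1 of 4 cortical markers was lower in the GA-Camk2a cortex and 2 of 5 hippocampal markers in the GA-Camk2a hippocampus. Total counts per library ran from 1048201 to 5888102, with a median of 1975173.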

How the data were processed

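Bulk RNA from cortex and hippocampus was measured with prime-seq. Per the study's methods the data were aligned to GRCm39, and its reporting summary names zUMIs, which aligns with STAR. The counts also held a row for a GFP sequence. The authors deposited raw counts, which are whole numbers, and the submitters' processing notes also name cutadapt 1.12, FastQC 0.11.8 and DESeq2 1.44. Whether molecular identifiers or reads were counted, the annotation release, and the use of introns and strand are not given in the sources used here. If the counts are reads, counting error understates the technical error.

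Symbols came from a GENCODE annotation of GRCm38 matched on the Ensembl number (43308 of 64361 genes, 96.1% of counts), and all 10 genes had 1 row. The GFP row stayed out of totals and tests. CPM were computed from library totals. The genotypes were compared within a tissue by edgeR 4.0.16 under R 4.3.3 (TMM, filterByExpr minimum count 10, quasi-likelihood F-test, batch as covariate, Benjamini-Hochberg adjustment over all genes, threshold 0.05). DESeq2, named in the methods of the study, was run without covariates as an alternative. The SE was taken as the log2 fold change over the square root of F. The difference between tissues was an interaction contrast over 21 libraries, and the tissues were compared in 9 control libraries. The script was tested on simulated data.

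Groups, mouse and batch came from the labels. A mouse number joins libraries of the same animal, so the mouse as block was run where tissues were compared. Deviations from group means, not centred by batch, were correlated between the 2 libraries of each of 10 mice. The 5 mice with both tissues in the same batch gave 0.16 to 0.31. The 5 mice with tissues in different batches gave -0.23 to -0.07. The value followed batch, so it does not check the pairing of the tissues. The 46 pairs of libraries within groups differed by 2.10 to 15.1 chi-square per degree of freedom (0 identical), so each counted as 1 replicate. Within a tissue, p-values measure the spread between mice of few litters. The main fits between tissues treat the 2 libraries of a mouse as independent, so their p-values measure the spread between libraries.

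The 10 genes and the lists beside them were chosen with earlier results of these data known. The rule for names took all 10 genes, up to 6 genes per list past the threshold in a tissue, marker genes as summaries, and the 3 genes most like Gadd45g. Promoters came from RefSeq (GRCm38.p6). The 0 unused count columns left nothing out. No protein sequences were used here. Alternatives were RLE and upper quartile normalization, no filter, minimum count 30, DESeq2 1.42.0 with and without batch, limma-voom (limma 3.58.1), no batch term, thinned counts, single batches, a fit of all libraries, the mouse block and each library left out, and 2 chosen after seeing the data, without both shallowest cortex controls and without the 3 hippocampal libraries high in Rorb.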

Additional observations from a re-analysis of the deposited data

Results flagged for a closer look

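The row of the GFP sequence, which the comparisons did not use, held 13 counts in 7 of 12 GA-Camk2a libraries and 4 counts in 2 of 9 control libraries. Its highest value was 1.80 CPM in a GA-Camk2a library, above the highest control value of 1.01 CPM. With so few counts, and counts in controls, this row does not check the genotype labels of the libraries in which Trp53, Cdkn1a and Gadd45g were compared. None of the 10 genes had a library that stood apart from its group, in 40 groups of 4 to 6 libraries tested with Dixon's criterion, where chance alone would give about 1 in 20.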

How the results depend on the processing

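Over the 10 genes and 4 comparisons, 439 of 491 values with 1 library left out and 394 of 440 values under other settings kept their direction and their side of the threshold. The count of genes called over the whole table moved with thinned counts to 1086 (cortex), 929 (hippocampus), 24 (difference between tissues) and 1456 (control tissues), and in batches 1 and 2 alone to 876 and 230 (cortex) and to 115 and 681 (hippocampus). The difference between tissues gave 159 calls with no filter, 92 with a minimum count of 30, 127 and 98 with DESeq2 with and without batch, 36 with no batch term and 70 of 14751 with the mouse as replicate block. Without the 3 hippocampal libraries high in Rorb, a setting added after seeing the data, the counts were 1005 (hippocampus) and 20 (difference), and 0 of the 9 and 10 genes tested passed (4 and 2 at an unadjusted p under 0.05 in edgeR). As reported, with all libraries and TMM, the difference between tissues gave 22 higher and 37 lower calls, and 34 and 35 with RLE size factors. With 1 library left out, the counts were 1038 to 1526 (cortex), 1038 to 1831 (hippocampus) and 22 to 66 (difference).

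Of the 10 genes, 1 passed in the cortex with no filter, a minimum count of 30, DESeq2 with and without batch, thinned counts, and without both shallowest controls, and 0 in either batch alone. In the hippocampus 0 passed in either batch. With 1 library left out, 1 to 2 passed in the cortex and 0 to 2 in the hippocampus. With the mouse as replicate block, 1 of 10 passed in the difference between tissues, Cdkn1a, and the block changed no other call of the 10 genes.

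Values that changed sign had adjusted p far above the threshold, and the cause was not tested. In the cortex, Cdkn1a was 0.00030 with upper quartile, 0.030 with limma-voom, 0.040 thinned, 0.042 without both shallowest controls, 0.19 in batch 1 and -0.19 to 0.099 with 1 library left out. Cortical Gadd45b was 0.0075 with upper quartile, 0.012 and 0.019 with DESeq2, 0.087 with limma-voom, 0.016 thinned, 0.42 in batch 2 and -0.20 to 0.18 with 1 library left out. Cortical Mdm2 was -0.14 in batch 2 and Bbc3 -0.091 in batch 1. Hippocampal Mdm2 was -0.069 with no filter, -0.031 in batch 1 and without the 3 libraries high in Rorb, -0.0050 in the fit of all libraries and -0.047 to 0.053 with 1 library left out, and Ccng1 0.13 in batch 1 and -0.085 to 0.056 with 1 left out. In the difference between tissues, Phlda3 was 0.015 (minimum count 30), 0.044 (thinned), 0.022 (replicate block) and 0.035 (without the 3 libraries high in Rorb), Gadd45b -0.20 (thinned) and Gadd45g 0.015 (limma-voom), and with 1 library left out Phlda3 was -0.077 to 0.078, Gadd45a -0.029 to 0.59, Gadd45b -0.079 to 0.22 and Gadd45g -0.14 to 0.075. Between control tissues, Gadd45b was 0.11 (thinned), 0.065 (replicate block) and -0.24 to 0.084 with 1 left out, and Ccng1 -0.11 to 0.094. Trp53 could not be tested in the cortex with a minimum count of 30, and cortical Gadd45b was tested in 12 of 13 other settings. Bbc3 was tested in 10 of 13 other settings in the cortex and 9 of 13 in the hippocampus. With 1 library left out, Bbc3 was tested in 4 of 11 cortical and 7 of 10 hippocampal fits. Depth limits Trp53 in the cortex and Bbc3 in both tissues, with as few as 4 and 3 counts in a library. It also limits the calls of Fas, Bcl2a1b, Bcl2a1a and Egr2 among the wider lists, whose low counts are given above.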
